A study of Mus musculus with 12 samples.

Results

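Intraflagellar transport (IFT), BBSome and connecting cilium genes were followed by RNA-seq in whole retinas of mice in which Otx2 was deleted in photoreceptors (PRs). Members were chosen by gene symbol: every protein-coding gene named Ift or Bbs with a number, together with Ttc8, Mkks, Arl6, Lztfl1, Cep290, Rpgr, Rpgrip1, Tulp1, Wdr19, Wdr35, Kif3a, Kif3b, Kif17 and Arl3, with at least 10 counts in at least 3 libraries. All 36 genes that matched by symbol passed this minimum, out of 54146 genes counted, and all 36 were also among the 18628 genes tested. IFT subunits that the annotation lists under other symbols, such as Traf3ip1 and Cluap1, were treated as a separate list.

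The cKO mice carried Crx-CreERT2, a tamoxifen-inducible Cre driven by the Crx promoter, and Otx2 flox/flox, in a 129/SV strain. They received a single intraperitoneal dose of tamoxifen at P30 and were killed at P32 (mice 4 to 6), P34 (mice 7 to 9) or P38 (mice 10 to 12), 2, 4 and 8 d after induction. Controls were 3 mice at P30 (mice 1 to 3), whose labels read Control_Crx and name neither alleles nor a time after induction. Age, tamoxifen and deletion changed together between these groups and cannot be told apart, and sex moved with them: read from Xist and Y-linked genes, the 3 P30 mice were female, against 2 females at P32 and 1 each at P34 and P38.

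The outer segment of a PR is a modified primary cilium, joined to the cell body by the connecting cilium. IFT-B and IFT-A complexes form trains that kinesin-2 and dynein-2 motors carry along the axoneme, toward the tip and back. The BBSome is a coat-like complex that rides on these trains and removes membrane proteins from the cilium. Loss of many of these genes causes retinal degeneration in humans and mice, either alone or within Bardet-Biedl, Joubert or Leber disease. OTX2 and its relative CRX are homeodomain factors that drive many PR genes, and the comparison asks whether the ciliary transport machinery changed in the days after Otx2 was removed.

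No gene of the 36 passed the edgeR test of change in any of 7 comparisons, where it called 0 to 0.66% of all genes tested. DESeq2, an alternative, called Ift80 from P32 to P34 (against 7.63%). From P32 to P38 it called Bbs1, Ift122 and Ift80 (against 4.99%). The largest differences from P30 were −0.37 on the log2 scale for Ift80 at P32, −0.38 for Bbs12 at P34 and 0.39 for Bbs1 at P38. A gene was called where the quasi-likelihood test of edgeR gave it a p of at most 0.05 after Benjamini-Hochberg adjustment and its fold, on the log2 scale, was 0.5 or more in either direction. The median standard error (SE) of a log2 fold change between 2 ages was 0.137 for the 36 genes and 0.191 for all genes tested. The 2 sets were not matched for level. In bulk retina, fewer cells of a type and less RNA per cell cannot be told apart, and each value is 1 library from 1 mouse, so p-values measure the spread between mice.

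Library totals ranged from 29701483 to 60145034 counts, of which the 36 genes took 0.390 to 0.482%, and the lowest count of any of them in any mouse was 153, for Kif17. Otx2 itself, counted over all its exons, had 293 to 328 CPM (counts scaled to a common library size) at P30 and 307 to 377 CPM in the cKO mice. The floxed allele loses a coding exon while other exons are still counted, so this gene count does not check the deletion. The 15 rod markers were detected in every mouse, with a sum of 72288 to 129300 CPM. One library stood apart: in P32 mouse 4 log2 CPM had a slope of −0.187 per doubling of exonic length, against −0.0437 to 0.0706 in the other 11 mice. This mouse had the lowest value of all 12 for 15 of the 36 genes and the highest for 7, against 29.8 and 27% of all genes tested. P38 mouse 11 was lowest for 10 (against 10.5%) and P38 mouse 10 highest for 10 (against 9.64%). By other measures P34 mouse 7 and P38 mouse 10 stood apart. Mitochondrial genes took 3.39 and 3.29% of their counts, against 1.64 to 2.57% in the other mice. Their 10 highest genes took 13.2 and 13.9%, against 9.39 to 11.9%. Of their reads 6.53 and 7.53% met no gene, against 8.67 to 13.7%.

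Levels between genes were compared as CPM per kilobase (kb) of exonic length, since a longer transcript gives more reads. This length joins all annotated exons of a gene, so it can exceed that of any single transcript. Tulp1, a PR protein needed for rhodopsin transport to the outer segment, had the highest level with a mean of 186 CPM per kb and 166 to 235 in single mice. Arl6, the small GTPase that recruits the BBSome to membranes, followed with 83.9 CPM per kb, and Arl3, the GTPase that releases lipidated cargo in the cilium, with 74.8. Rpgrip1, which anchors Rpgr in the connecting cilium, had 55.8 CPM per kb and was the most variable of the 36 genes, with its highest mouse 2.62 times its lowest. Tulp1 and Rpgrip1 alone took 42.4% of the CPM of all 36 genes.

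The subunits of one complex did not share one level. Within IFT-B, Ift20 stood at 41.2 CPM per kb, while Ift88, a core subunit needed for normal outer segments, stood at 6.31. The BBSome subunits lay closer together, from 15.0 CPM per kb for Bbs1 to 35.7 for Bbs5. IFT-A subunits ran from 4.25 for Wdr19 to 19.9 for Ift43. The kinesin-2 subunits Kif3a and Kif3b had 25.2 and 22.1 CPM per kb, whereas Kif17, the homodimeric kinesin-2, was the lowest of the 36 genes at 1.15, 162-fold below Tulp1. Most neighbors in this order cannot be ranked: only 3 of the 35 neighboring pairs had 12 values that did not overlap, Tulp1 above Arl6, Bbs10 above Wdr19 and Wdr19 above Kif17.

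**Figure D1:**
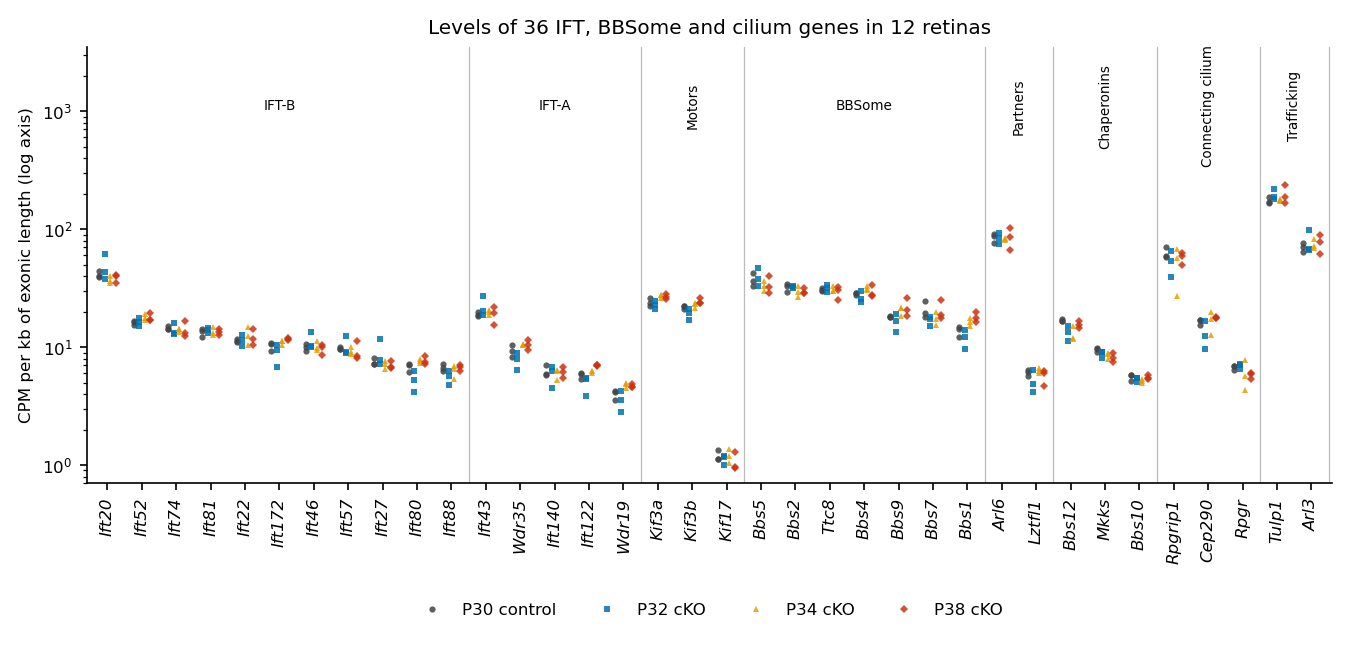
CPM per kb of exonic length (log axis) of the 36 genes in each of the 12 mice, grouped by role and marked by age. Tulp1 lies highest at a mean of 186 and Kif17 lowest at 1.15, and within each gene the 4 ages mostly overlap.

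At P32, 2 d after induction, 22 of the 36 genes lay below P30 and 14 above, with a median log2 fold change of −0.08 (−0.01 for all genes tested), which was −0.14 without P32 mouse 6 and −0.05 without P32 mouse 4. None passed the threshold by edgeR's quasi-likelihood test or by DESeq2, where edgeR called 0% and DESeq2 0.134% of all genes tested. At an unadjusted p of 0.05 there were 2, Ift80 and Bbs12, or 5.56% of the 36 genes, against 5.64% of all genes tested. This count was 0 without P32 mouse 4 or P30 mouse 3 (against 2.59 and 2.95%) and 1 without P30 mouse 2 (against 2.55%). It was 4 without P30 mouse 1 or P34 mouse 7 (against 7.36 and 5.71%), and 13 without P32 mouse 6 (against 18.9%).

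Ift80, an IFT-B subunit mutated in a skeletal ciliopathy, had 76.1, 87.5 and 89.8 CPM in control mice 1 to 3, then 51.8, 66.1 and 78.3 in P32 mice 4 to 6. P32 mice 4 and 5 were below all P30 mice, and mouse 6 lay within their range. The log2 fold change was −0.37 (SE 0.134, 95% interval −0.66 to −0.08, adjusted p = 0.698, edgeR), and it was −0.23 without P32 mouse 4. For Ift88, the controls had 29.2, 33.0 and 30.8 CPM and the P32 mice 22.3, 26.4 and 29.0. All 3 P32 values were below all 3 P30 values, the last by a narrow margin, and the log2 fold change of −0.26 had an interval of −0.53 to 0.01 and was −0.16 without P32 mouse 4. Bbs12, Bbs7 and Ift88 were the only genes of the 36 with no overlap between P32 and P30, all lower (8.33%, against 4.39% of all genes tested), and none was higher without overlap (against 5.26%).

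At P34, 4 d after induction, 21 of the 36 genes lay above P30 and 15 below, with a median log2 fold change of 0.01. No member passed the threshold by edgeR's quasi-likelihood test or by DESeq2, against 0.66% of all genes tested by edgeR and 1.98% by DESeq2, and 1 had an unadjusted p of at most 0.05 (2.78%, against 10.5%). This count was 4 with a trend on gene length taken out (against 12.6%), 3 with only the mice compared (against 13.7%) and 2 with sex as a covariate (against 13.2%). In the main fit the gene was Bbs12, a chaperonin-like protein that helps assemble the BBSome. It had 40.4, 40.2 and 42.3 CPM in the controls, then 27.7, 32.8 and 36.8 (P32 mice), 28.8, 36.8 and 28.9 (P34 mice), and 35.2, 37.3 and 40.6 (P38 mice). The controls sat close together and 8 of the 9 cKO mice were below all of them, the exception being P38 mouse 12. The log2 fold change at P34 was −0.38 (SE 0.127, 95% interval −0.66 to −0.10, adjusted p = 0.315, edgeR). It was −0.12 at P38, where the groups overlapped.

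Bbs12 works with Mkks and Bbs10, the other chaperonin-like genes. Mkks had 31.3, 31.6 and 29.2 CPM in the controls, then 29.3, 26.2 and 29.1 (P32 mice), 25.4, 28.6 and 28.0 (P34 mice), and 28.6, 24.2 and 26.0 (P38 mice). It too lay below every control in 8 of 9 cKO mice, here all but P32 mouse 4, and by P38 its log2 fold change was −0.22 (SE 0.0973, adjusted p = 0.847, edgeR). Bbs10 was the steadiest of the 36 genes, with 15.3 to 17.8 CPM over all 12 mice. Summed, the 3 chaperonin-like genes had 88.7 ± 1.24 CPM (SD, n = 3) in the controls, then 76.8 ± 5.23 (P32), 74.6 ± 6.02 (P34) and 81.0 ± 2.40 (P38), and all 9 cKO sums were below the 3 control sums, a role described because 2 of its genes were low. No single gene of the 36 had all 9 cKO mice on one side of the controls (against 0.601% of all genes tested). The sums of the motors and of IFT-A lay the other way at the later ages: the motors summed to 212 to 217 CPM in the controls and 226 to 253 CPM in the 6 P34 and P38 mice, and IFT-A to 237 to 265 and 266 to 293 CPM. The sums of the other 5 roles overlapped the controls at each age. With the 9 cKO mice taken as one group, the spread also holds differences between ages. In that fit Bbs12 and Mkks were the only genes of the 36 at an unadjusted p of at most 0.05. Their log2 fold changes were −0.27 and −0.17, with an edgeR adjusted p of 1 for both (0 genes called, against 0.0537% of all genes tested, and 5.56% against 2.63% at the unadjusted p). With sex as a covariate neither had an unadjusted p of at most 0.05 in that comparison, nor did any of the 36 without P30 mouse 1 or without P30 mouse 2.

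At P38, 8 d after induction, 20 genes lay below P30 and 16 above, and the median log2 fold change was −0.01. Without P38 mouse 11, 24 of the 36 lay above P30 and the median was 0.07. Again no gene of the 36 passed the threshold by edgeR's quasi-likelihood test or by DESeq2, with a background of 0% by edgeR and 0.242% by DESeq2. At an unadjusted p of 0.05 there were 3 (8.33%, against 5.64% of all genes tested): Bbs1 and Ift122 higher, and Mkks lower. This count moved with single mice, as did the share of all genes tested. It was 0 without P30 mouse 1 or P38 mouse 12 (against 3.81 and 5.43%). It was 1 without P30 mouse 2 or P34 mouse 9 (against 3.14 and 4.99%), and 5 without P32 mouse 4 (against 9.97%). Bbs1 is the BBSome subunit most often mutated in Bardet-Biedl syndrome. It had 93.3, 114 and 108 CPM in the controls, then 73.5, 93.7 and 107 (P32 mice), 124, 117 and 137 (P34 mice), and 136, 126 and 152 (P38 mice). The P34 and P38 mice were all above the 3 controls, and the P32 mice were not. Its log2 fold change from P30 to P38 was 0.39 (SE 0.138, 95% interval 0.09 to 0.69, adjusted p = 0.847, edgeR).

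Ift122, an IFT-A subunit of the retrograde train, had 55.7, 61.6 and 62.2 CPM in the controls, then 39.9, 55.7 and 56.9 (P32 mice), 62.8, 64.9 and 64.9 (P34 mice), and 72.1, 71.2 and 73.4 (P38 mice). The P38 mice were above the other 9. The log2 fold change from P30 to P38 was 0.27 (95% interval 0.01 to 0.54). Wdr19, another IFT-A subunit, had 40.3, 46.8 and 47.6 CPM in the controls, then 31.7, 39.9 and 47.8 (P32 mice), 50.8, 56.3 and 54.5 (P34 mice), and 55.0, 52.1 and 51.7 (P38 mice), so both later groups lay above the controls, with log2 fold changes of 0.26 and 0.24. With every P34 mouse above every control there were 7 of the 36 genes, Bbs1, Bbs4, Ift122, Ift52, Ift80, Wdr19 and Wdr35 (19.4%, against 10.4% of all genes tested), and with every one below there were 2, Bbs12 and Mkks (5.56%, against 9.67%). For P38 there were 8 above, Bbs1, Cep290, Ift122, Ift172, Ift52, Ift80, Kif3b and Wdr19 (22.2%, against 8.23%), and 2 below, Mkks and Rpgr (5.56%, against 7.96%). All 3 ages were set against the same 3 controls. Markers of some cell types moved with these ages. Of 9 ganglion cell markers 8 were higher at P34 than at P30 at an unadjusted p of 0.05 (none at the adjusted threshold, and against 3.4% of all genes tested), with a median log2 fold change of 0.46. At P38 2 of 9 were higher (against 1.82%), with a median of 0.27. They summed to 1013 to 1425 CPM in the controls, 1365 to 1943 CPM in the P34 mice and 1424 to 1719 CPM in the P38 mice. The rod markers summed to 79494 to 86074 CPM in the controls, to 72288 to 78829 in the P32 mice, to 89116 to 117270 in the P34 mice and to 85948 to 129300 in the P38 mice. The Müller glia markers summed to 5452 to 5779 CPM in the controls and, lower without overlap, to 5015 to 5254 CPM in the P38 mice. At P34 they overlapped the controls, and the cone, bipolar and amacrine sums did so at P34 and P38. No defining ganglion cell or rod marker was at 0 in any mouse, and the part of any of these cells in the values of the cilium genes was not tested.

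**Figure D2:**
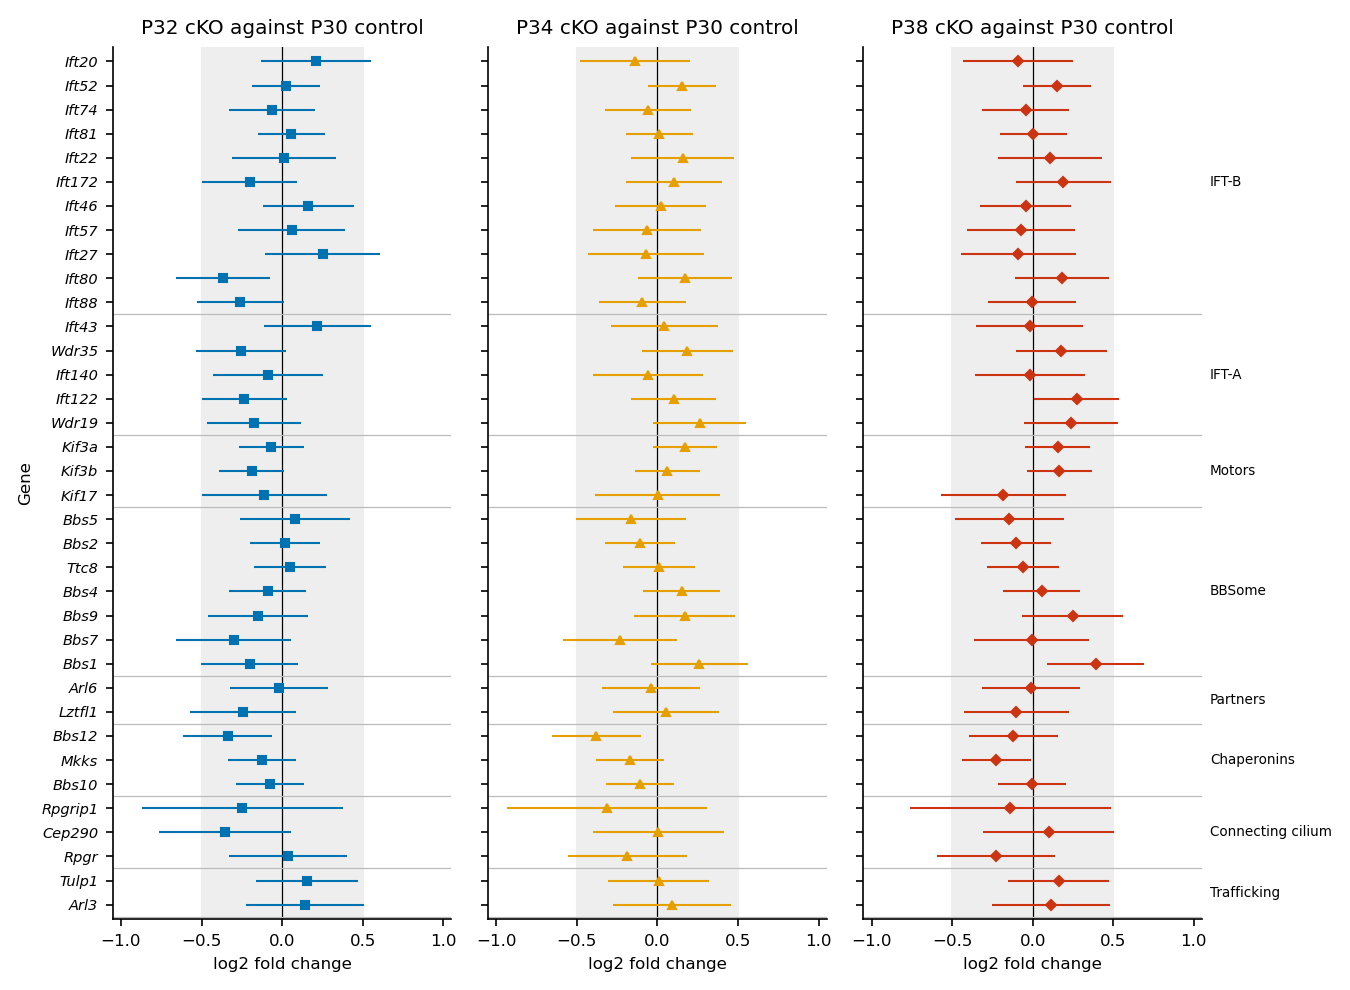
Log2 fold changes from P30 with their 95% intervals (edgeR) for each gene at P32, P34 and P38, grouped by role. The grey band spans −0.5 to 0.5, and the intervals of 23, 29 and 28 of the 36 genes stayed within it.

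An adjusted p above the threshold does not show that a gene stayed the same, so the intervals set the limit. For 23 (P32), 29 (P34) and 28 (P38) of the 36 genes the 95% interval lay within −0.5 to 0.5, against 36.7, 38.2 and 40.3% of all genes tested, which were not matched for level. With the 9 cKO mice as one group, a mean over the 3 ages and not each age, it did so for 33 of 36 (against 50.3%). Kif3a, a motor subunit of the anterograde train, gives an example of a narrow one. Its 95% interval ran from −0.03 to 0.37 at P34 and from −0.05 to 0.35 at P38, with 80.6 to 93.4 CPM in the controls and 91.0 to 102 CPM in the 6 later mice. Arl6 had log2 fold changes of −0.02, −0.04 and −0.01 at the 3 ages, all with intervals inside −0.5 to 0.5.

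A further 4 train subunits all overlapped the controls at P32. Ift172, which binds membranes and turns the train at the tip, had 61.5, 70.2 and 71.8 CPM in the controls, then 44.7, 63.1 and 68.96 (P32 mice), 69.03, 75.3 and 74.2 (P34 mice), and 77.6, 78.6 and 76.1 (P38 mice). Every P38 mouse was above every control, and only P32 mouse 4 lay far below them. Ift140, an IFT-A subunit mutated in retinal and skeletal ciliopathies, had 49.1, 58.4 and 48.3 CPM in the controls, then 37.4, 52.3 and 57.1 (P32 mice), 43.6, 52.4 and 53.6 (P34 mice), and 45.6, 56.8 and 51.7 (P38 mice). It overlapped the controls at each age. Ift52, an IFT-B core subunit, had 45.8, 43.2 and 46.2 CPM in the controls, then 49.6, 45.6 and 42.3 (P32 mice), 53.2, 47.6 and 49.3 (P34 mice), and 55.0, 47.7 and 47.3 (P38 mice). Its later values were all above the controls by a small margin, with log2 fold changes of 0.15 at both P34 and P38. Ift27, the Rab-like GTPase that links IFT-B to BBSome exit, had 23.3, 20.5 and 20.6 CPM in the controls, then 33.6, 22.5 and 20.6 (P32 mice), 22.0, 20.8 and 18.6 (P34 mice), and 22.0, 19.0 and 19.6 (P38 mice). The one high value was again that of P32 mouse 4.

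Among the motors, Kif3a had 80.6, 84.9 and 93.4 CPM in the controls, then 76.0, 82.2 and 89.0 (P32 mice), 98.9, 93.04 and 99.8 (P34 mice), and 102, 95.2 and 91.0 (P38 mice). Its partner Kif3b had 126, 126 and 118 CPM in the controls, then 96.5, 109 and 119 (P32 mice), 122, 133 and 131 (P34 mice), and 147, 134 and 132 (P38 mice). Kif3b overlapped the controls at P32 and P34 and lay above them at P38, where its log2 fold change was 0.16 (95% interval −0.04 to 0.37). Kif17 stayed between 4.32 and 6.33 CPM in all 12 mice, with each cKO age overlapping the controls.

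Of the BBSome subunits, Bbs4, which binds centriolar satellites, had 167, 172 and 174 CPM in the controls, then 146, 154 and 182 (P32 mice), 200, 184 and 186 (P34 mice), and 204, 163 and 167 (P38 mice), so only P34 stood above the controls. Ttc8 had 114, 112 and 120 CPM in the controls, then 111, 120 and 128 (P32 mice), 113, 124 and 114 (P34 mice), and 122, 95.6 and 115 (P38 mice), and overlapped them throughout. Arl6 had 191, 182 and 162 CPM in the controls, then 193, 158 and 176 (P32 mice), 177, 174 and 169 (P34 mice), and 213, 140 and 179 (P38 mice). Its widest spread lay among the P38 mice, which held both its highest and its lowest value. Arl3 had 177, 158 and 190 CPM in the controls, then 244, 167 and 168 (P32 mice), 207, 174 and 179 (P34 mice), and 223, 154 and 192 (P38 mice), and was highest in P32 mouse 4 and P38 mouse 10.

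The connecting cilium scaffold was the least certain group. Rpgrip1 had 718, 858 and 712 CPM in the controls, then 476, 654 and 799 (P32 mice), 327, 829 and 688 (P34 mice), and 602, 765 and 713 (P38 mice). Every age overlapped the controls, and the single low value of P34 mouse 7 widened the spread. Its log2 fold change at P34 was −0.31 with a 95% interval of −0.93 to 0.31, and −0.02 without that mouse. Rpgr, an X-linked gene mutated in retinitis pigmentosa, was also lowest in that mouse, with 31.2 CPM against 56.7 and 41.3 in P34 mice 8 and 9 and 46.1 to 50.5 at P30. At P38 it had 38.8, 43.2 and 43.6 CPM, below all 3 controls, with a log2 fold change of −0.23 (95% interval −0.60 to 0.14).

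Cep290, a transition zone protein whose loss causes Leber congenital amaurosis, had 178, 197 and 199 CPM in the controls, then 112, 144 and 193 (P32 mice), 146, 229 and 201 (P34 mice), and 208, 203 and 204 (P38 mice). P32 mice 4 and 5 and P34 mouse 7 were low, while the P38 mice sat close together and above every control. In the same P34 mouse 7, the 15 rod markers summed to 117270 CPM, above the 79494 to 86074 CPM of the controls. Tulp1 was not low in that mouse: it had 1178, 1150 and 1208 CPM at P34 and 1120 to 1255 CPM at P30. Its highest value, 1568 CPM, was in P38 mouse 10, which also had the highest rod marker sum (129300 CPM) and the highest value for 10 of the 36 genes.

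**Figure D3:**
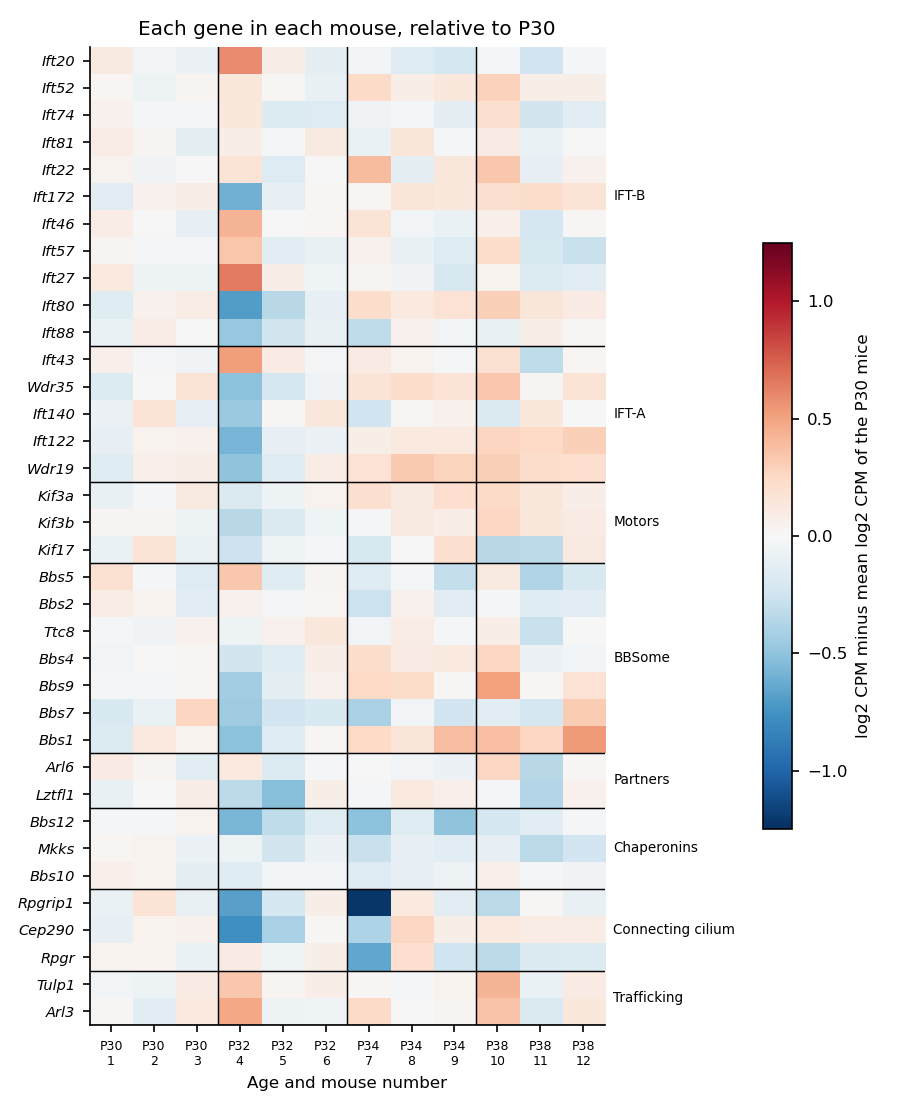
Log2 CPM of each gene (rows, by role) in each mouse (columns), relative to the mean log2 CPM of the P30 mice. The column of P32 mouse 4 holds strong reds and blues side by side, and P34 mouse 7 is low for Rpgrip1, Cep290 and Rpgr.

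The largest differences lay between cKO ages and all involved P32. From P32 to P34 none of the 36 genes passed the threshold by edgeR's quasi-likelihood test, against 0.242% of all genes tested, and 10 had an unadjusted p of at most 0.05 (27.8%, against 26.9%). Of these, 9 (25%, against 13.5% of all genes tested in that direction), Bbs1, Bbs9, Kif3a, Kif3b, Ift122, Wdr19, Wdr35, Ift172 and Ift80, were higher at P34 and Ift20 was lower. DESeq2 called 1, Ift80 (against 7.63% of all genes tested). The groups did not overlap for 9 genes higher at P34 (25%, against 14.8%) and for none lower (against 13.6%). The first of them by p was Ift80, with the P32 values given above and 98.1, 91.4 and 95.4 CPM in the P34 mice, where all P34 mice were above all P32 mice. Its log2 fold change was 0.54 (SE 0.134, 95% interval 0.24 to 0.83, adjusted p = 0.0948, edgeR). Wdr35, an IFT-A subunit, had 46.8, 57.3 and 64.6 CPM in the P32 mice, then 75.5, 77.9 and 75.4 in the P34 mice, a log2 fold change of 0.44 (SE 0.129). Its P34 values were nearly equal, and those of P32 were all lower.

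From P32 to P38 the edgeR fit again called none (background 0%), and 10 genes had an unadjusted p of at most 0.05, all higher at P38 (27.8%, against 23.3% in either direction and 12.3% higher). They were Bbs1, Bbs9, Cep290, Ift122, Ift172, Ift80, Kif3a, Kif3b, Wdr19 and Wdr35. This comparison and that from P32 to P34 share the P32 mice. DESeq2 called 3, Bbs1, Ift122 and Ift80 (against 4.99%). Without overlap, 9 genes were higher at P38 (25%, against 13.3%) and 1, Rpgr, was lower (2.78%, against 13.2%). The edgeR log2 fold changes of these 3 were 0.59 (SE 0.138), 0.51 (SE 0.121) and 0.55 (SE 0.134), each with an edgeR adjusted p of 0.114. From P34 to P38 none of the 36 genes was called (background 0.199%) and none had an unadjusted p of at most 0.05 (against 5.08%) by edgeR, and DESeq2 called none (against 0.773%). Bbs10, Ift122 and Ift172 were higher at P38 without overlap (8.33%, against 5.36%) and no gene was lower (against 4.58%). There the 95% intervals of 31 genes lay within −0.5 to 0.5 (against 44.7% of all genes tested).

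**Figure D4:**
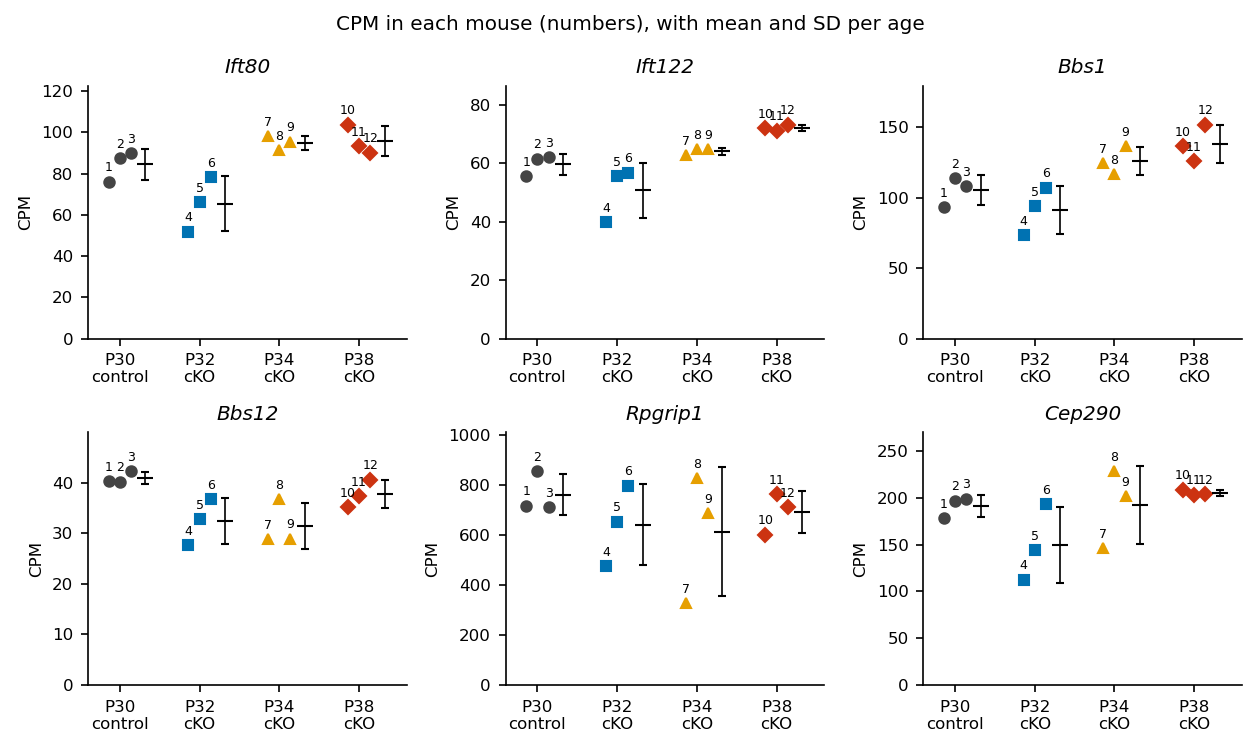
CPM of 6 genes in each mouse, with the mouse number at each point and the mean and SD (n = 3) beside each age. P32 mouse 4 is the lowest of its group for all 6, and P34 mouse 7 is the lowest of its group for Rpgrip1, Cep290, Bbs12 and Ift122.

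Fold changes moved with exonic length, most of all where P32 was involved. Across the 36 genes the log2 fold change from P32 to P34 correlated with log2 exonic length (Pearson's r = 0.645), as did that from P32 to P38 (r = 0.621) and, in the opposite direction, that from P30 to P32 (r = −0.607), where all 36 points of a comparison come from the same libraries and genes are not independent replicates. For the comparisons without P32, r was 0.304 from P30 to P34, 0.373 from P30 to P38 and 0.0997 from P34 to P38. The 18 genes of at least 5 kb had a median log2 fold change of 0.27 from P32 to P34, and the 10 genes under 3 kb one of −0.09. Ift80, with 12428 bases of exons, was the longest of the 36 genes and Ift20, with 1525, the shortest. Ift20, the IFT-B subunit that also sits at the Golgi, had 94.6 CPM in P32 mouse 4 and 53.0 to 67.5 CPM in the other 11 mice. In P32 mouse 4 the genes of at least 5 kb were at a median of −0.45 and those under 3 kb at 0.39 on the log2 scale, relative to the mean of the 12 mice.

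Without P32 mouse 4, the edgeR log2 fold changes from P32 to P34 were 0.40 for Ift80, 0.33 for Bbs1 and 0.32 for Wdr35, and 5 of the 36 genes (those 3, Ift122 and Wdr19) had an unadjusted p of at most 0.05 (against 15.7% of all genes tested). From P32 to P38 they were 0.46 for Bbs1, 0.36 for Ift122 and 0.41 for Ift80, and 7 of the 36 had such a p (against 13%). Without P32 mouse 6, which leaves mouse 4 in the group, edgeR called 5 genes from P32 to P34 (Bbs1, Cep290, Ift80, Wdr19 and Wdr35), against 14.3% of all genes tested. From P32 to P38 it called 8 (Bbs1, Bbs9, Cep290, Ift122, Ift172, Ift80, Wdr19 and Wdr35), against 10.2%. With a trend on gene length taken out of each library, the edgeR log2 fold changes from P32 to P34 were 0.27 for Ift80, 0.33 for Bbs1 and 0.12 for Ift122. The median of the 36 genes moved up: from 0.01 to 0.105 for P32 to P34, with 26 genes positive in place of 19, and from 0.08 to 0.154 for P32 to P38, with 23 positive in both. Genes at an unadjusted p of at most 0.05 then numbered 9 (against 24.7% of all genes tested) and 12 (against 20.9%).

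**Figure D5:**
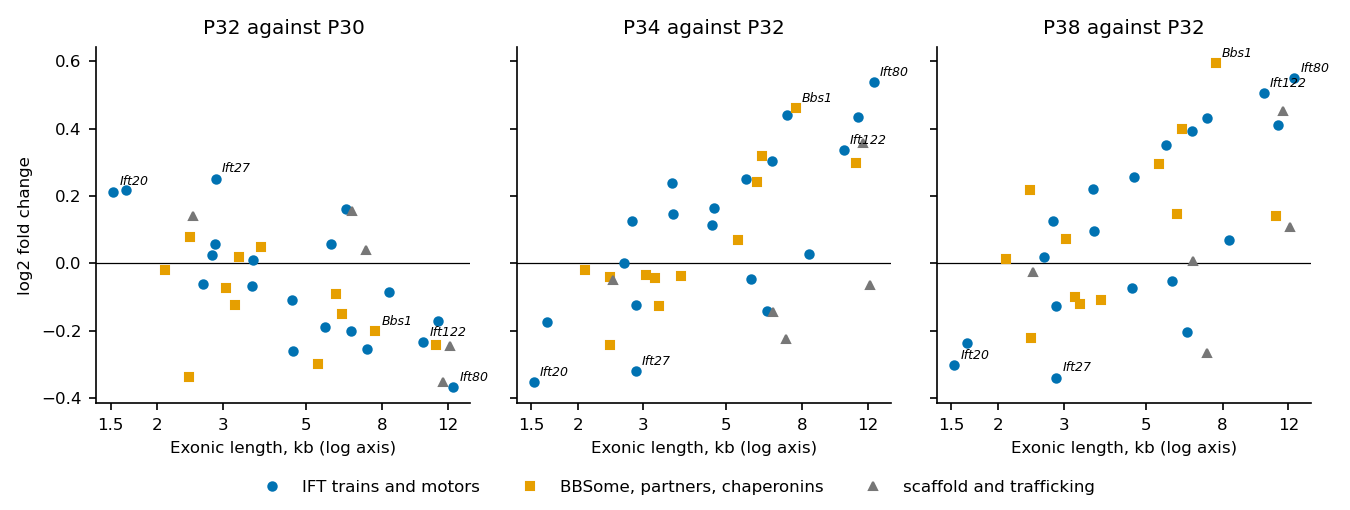
Log2 fold change of each gene against its exonic length (log axis) from P30 to P32, P32 to P34 and P32 to P38. Long genes such as Ift80 lie low in the first panel and high in the other two, and short ones such as Ift20 and Ift27 the reverse.

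Of 87 other cilium genes on 6 lists (other IFT and motor subunits, other BBSome genes, transition zone, outer segment cilium and lipidated cargo, ciliogenesis regulators, motile cilium), 81 were tested. None was called by edgeR's quasi-likelihood test in any of the 7 comparisons, where it called 0 to 0.66% of all genes tested. At an unadjusted p of at most 0.05 there were 1 lower (P32), 3 higher (P34), and 2 higher and 1 lower (P38) of these genes against the controls, or 1.23, 3.7 and 3.7% of the 81, against 5.64, 10.5 and 5.64% of all genes tested. From P32 to P34 there were 15 higher and 6 lower (25.9%, against 26.9% of all genes tested), and from P32 to P38 11 higher and 7 lower (22.2%, against 23.3%). From P34 to P38 there was 1 (1.23%, against 5.08%), and with the 9 cKO mice as one group none (against 2.63%). DESeq2 called 4 from P32 to P34 (against 7.63%), 5 from P32 to P38 (against 4.99%) and none in the other comparisons. The other IFT and motor list had 2 higher and 3 lower at an unadjusted p from P32 to P34 (31.2%, against 26.9%), with a median log2 fold change of −0.08. Dync2h1, the heavy chain of the retrograde motor dynein-2, had log2 fold changes of 0.78 (SE 0.231) from P32 to P34 and 0.86 (SE 0.231) from P32 to P38. Kifap3, the accessory subunit of the Kif3a and Kif3b motor, had 0.25 (SE 0.100) from P30 to P34.

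Tissue from outside the neural retina also differed between the retinas. The 7 of 8 iris and ciliary body markers that were tested summed to 40.5, 187 and 201 CPM in P30 mice 1 to 3 and to 8.89 to 65.4 CPM in the cKO mice. The 10 RPE markers summed to 188 to 601 CPM at P30 and 110 to 298 CPM in the cKO mice, and the 9 lens markers to 338 to 52556 CPM over all mice, with no defining marker of the RPE or lens at 0 in any mouse. At P34 against P30, 6 of the 7 iris and ciliary body markers and 2 of the 10 RPE markers fell past the threshold, and all 9 lens markers were lower at an unadjusted p of 0.05 but not at the adjusted threshold (against 0.66 and 7.06% of all genes tested). Their part in the values of the cilium genes was not tested.

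The start sites of the cilium genes were searched for the X-box, the paired motif bound by RFX factors at many ciliary promoters, and for TAATCC, the core bound by OTX2 and CRX. The X-box was written as GTTNCC, a spacer of 0 to 3 bases and GGNAAC, and both motifs were searched on both strands from 250 bases before to 50 after each start site in a RefSeq table that held 33 of the 36 genes. An X-box was found for 3 of the 33 (9.09%), against 0.936% of the 27025 genes in the table. Its first 6 bases with G in place of N, GTTGCC, which the X-box can contain, were found for 12 of 33 (36.4%, against 14.1%). TAATCC was found for 2 of 33 (6.06%, against 8.14%). A match describes the letters of a window and not binding. The windows that hold an X-box or TAATCC before the start site follow 5′ to 3′ on the gene's strand of GRCm38 (RefSeq), shown because the counts above rest on them, with the motif in capitals.
Bbs7 X-box, chr3:36613490-36613517, minus strand, upstream of the GENCODE gene: cgccccgGTTGCCTTGGAAACcggccag
Ift57 X-box, chr16:49699227-49699253, plus strand, overlapping a GENCODE exon: ccctgcgGTTGCCTGGTAACggtgggg
Lztfl1 X-box, chr9:123717768-123717796, minus strand, upstream of the GENCODE gene: tttctctGTTGCCATTGGCAACggcaggc
Bbs1 TAATCC, chr19:4906807-4906836, minus strand, upstream of the GENCODE gene: tcagtctagtctTAATCCctaaaaagcgct
Rpgrip1 TAATCC on the opposite strand, chr14:52110863-52110892, plus strand, overlapping a GENCODE exon: gctaaaaggcctGGATTAgtgtctcctcta

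The 3 genes with an X-box before the start site did not share one course. Bbs7, a BBSome subunit, had 96.2, 104 and 133 CPM in the controls, then 80.9, 93.2 and 96.1 (P32 mice), 83.1, 107 and 93.4 (P34 mice), and 101, 94.4 and 136 (P38 mice), with all P32 mice below the controls, mouse 6 only narrowly. Ift57, a peripheral IFT-B subunit, had 27.4 to 28.6 CPM in the controls and 23.0 to 35.5 CPM in the cKO mice. Lztfl1, which limits entry of the BBSome into the cilium, had 63.3 to 71.7 CPM in the controls, and its lowest values were 46.7 CPM in P32 mouse 5 and 52.5 CPM in P38 mouse 11. Of the pair with TAATCC, Bbs1 was higher at P34 and P38 than in all controls and Rpgrip1 overlapped them at every age, as given above, and neither passed the threshold.

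The main genes lie at the following places of GRCm38 by the GENCODE M21 annotation. Ift80 (ENSMUSG00000027778) spans chr3:68892499-69004570 on the minus strand, Ift122 (ENSMUSG00000030323) chr6:115853470-115926699 on the plus strand, and Bbs1 (ENSMUSG00000006464) chr19:4886878-4906628 on the minus strand. Bbs12 (ENSMUSG00000051444) spans chr3:37312554-37321453 and Rpgrip1 (ENSMUSG00000057132) chr14:52110704-52163546, both on the plus strand. Values are sums over all exons of each gene, so isoforms were not told apart.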

How the data were processed

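Whole retinas of 12 mice were sequenced as 1 library each. Per the labels and the paper, the authors made stranded poly(A) libraries, mapped reads to mm10 with STAR 2.5.3a and counted them per Ensembl gene with HTSeq 0.6.1p1, and the deposited values are raw counts per gene and mouse. The strand option of the counting is not given in the sources used here. Lines that name no gene stayed out of library sizes: of all reads listed, 23.7 to 32.2% did not map uniquely, 6.53 to 13.7% met no gene and 0.646 to 0.696% met several. No column went unused, and no pair of libraries of one age held the same counts.

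Counts were scaled by TMM in edgeR 4.0.16 (R 4.3.3) and low genes were left out by filterByExpr. The 4 ages were fitted together by quasi-likelihood with Benjamini-Hochberg adjustment over the 18628 genes tested. The comparison of 9 cKO mice against P30 was a separate fit, whose spread also holds differences between ages. The procedure was checked on simulated counts. An SE is the fold change divided by the root of F, and 95% intervals follow from it. Lengths are unions of GENCODE M21 exons. Members, lists and named genes (representatives by role, the 3 smallest p per comparison, extremes of level and single outlying mice) were chosen with earlier results of these data known. Alternatives were DESeq2 1.42.0, RLE scaling, filters, a robust fit, only the mice compared, sex, gene length, thresholds and leaving out mice. Floors and intervals of counts cover counting error only.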

Additional observations from a re-analysis of the deposited data

Results flagged for a closer look

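In 4 of the 36 genes, 1 of the 9 cKO mice lay far from the other 8, with a gap to its nearest neighbor above Dixon's critical share of the whole range. Chance flags about 1 in 20 groups. P32 mouse 4 accounted for 3 of them: it had the highest Ift20 (94.6 CPM) and Ift27 (33.6 CPM) and the lowest Ift172 (44.7 CPM), where Ift27 is the small GTPase of IFT-B and Ift172 its largest subunit. The fourth was Bbs7, highest in P38 mouse 12 at 136 CPM, close to the 133 CPM of P30 mouse 3. No gene had all mice of one cKO age above P30 and all of another below it.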

How the results depend on the processing

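The fold changes of the 3 genes with the smallest p in each comparison kept their sign under every alternative that was run, while medians close to 0 changed sign; other genes named were not followed through every alternative. Counts of called genes moved only from P32 to P34 and from P32 to P38, where edgeR called 0: DESeq2 called 1 and 3, no filter on low counts 1 and 1 (against 1.93 and 0.591% of all genes), and an unadjusted p with the limit on the fold 1 and 3 (against 14.4 and 11.9%). Leaving out each mouse in turn gave 0 to 5 called from P32 to P34 and 0 to 8 from P32 to P38, the highest without P32 mouse 6 in both (against 14.3 and 10.2% of all genes). From P32 to P34 the median of the 36 genes, on the log2 scale, was 0.105 with the length trend as an offset, against 0.01, and ran from −0.0122 to 0.0965 when each mouse was left out. The cause was not tested. In the other 5 comparisons no alternative called a gene. At an unadjusted p, leaving out P32 mouse 6 raised the genes of P32 against P30 from 2 to 13 (against 18.9% of all genes), and leaving out P32 mouse 4 brought them to 0 (against 2.59%). Over all mice left out in turn these counts ran from 1 to 3 for P34 (against 6.13 to 15% of all genes) and 0 to 5 for P38 against P30 (3.14 to 9.97%). They ran from 5 to 14 from P32 to P34 (15.7 to 36.2%), 0 to 2 from P34 to P38 (3.73 to 6.29%) and 7 to 16 from P32 to P38 (13 to 32.9%). For the 9 cKO mice against P30 they ran from 0 to 2 (1.44 to 4.8%). Leaving out P32 mouse 4 and P34 mouse 7 together, chosen after seeing the data, called none by edgeR, as with them. Of the checks on counts and medians 10 moved and 296 did not, where a move is a count beyond 1.5 times or a median shifted by more than its SD between mice (0.0802, or 0.0983 over the 9 cKO mice). Of those on single genes 12 passed the threshold under an alternative and 426 stayed on the same side. No paired analysis was possible because the mouse numbers of the groups do not repeat. With 3 mice an age, the 95% intervals against P30 of the genes outside the 23 (P32), 29 (P34) and 28 (P38) named above reached beyond 0.5 on the log2 scale, so such changes were not bounded for them.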
